A study of Mus musculus with 10 samples.

Results

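The response of mouse keratinocytes to the cytokine IL-17A was measured within 5 cultures, each sequenced once without and once with IL-17A, and the genes that moved the same way in all 5 pairs were collected. Of 37991 genes in the deposited table, 12054 had a mean of at least 1 FPKM (fragments per kilobase of transcript and per unit of sequencing depth) over the 10 libraries and were tested. In the pairs, 440 of these (3.65%) were higher with IL-17A in all 5 cultures and 517 (4.29%) were lower in all 5, 957 genes in all (7.94%). Signs drawn at random would agree over 5 pairs in a share of 0.0625. A place among the 957 is therefore not by itself evidence of a response. All 10 libraries of the series belong to this comparison.

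The cells were primary keratinocytes from skin of Mus musculus pups of postnatal day 4 to 5, carrying the allele Bcl10tm1Mak. The genotypes were Bcl10-/- (2 cultures) and Bcl10+/- littermates (3 cultures), so every culture carried at least 1 mutant copy of Bcl10 and there was no wild-type group. BCL10 is the adaptor that joins CARD-family scaffold proteins to the protease MALT1 upstream of NF-kB. Culture was on collagen, without serum, at 0.05 mM CaCl2, a low-calcium condition. Treatment was 200 ng/mL of recombinant mouse IL-17A over 5 h, and unstimulated cells served as the comparison. A culture here means the pair of libraries that share a genotype and a replicate number. Whether a number means another animal, litter or well is not said in the labels, so p-values cover only the spread among these libraries, part of which may be technical.

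IL-17A binds a receptor of IL17RA and IL17RC and recruits the adaptor Act1 (Traf3ip2) and TRAF6, which activate NF-kB and MAP kinases and also stabilise short-lived messenger RNAs. In the epidermis it is known for inducing antimicrobial proteins, neutrophil-attracting chemokines, IL-36 cytokines and IkB-zeta (Nfkbiz), an atypical IkB protein that acts as a transcriptional cofactor. Regnase-1 (Zc3h12a), an RNase that degrades inflammatory messenger RNAs, is a feedback gene of the same pathway and a substrate of MALT1.

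Several libraries stood apart or went against their labels. Bcl10 was 0.969 FPKM without and 16.4 FPKM with IL-17A in Bcl10-/- culture 1, and 17.0 and 16.6 FPKM in Bcl10-/- culture 2. The libraries labelled Bcl10+/- culture 1 held 18 and 16.3 FPKM, the level of the Bcl10-/- libraries, whereas Bcl10+/- cultures 2 and 3 held 59.5 to 72.3 FPKM. Which part of the gene the allele removes was not known from the labels. Every direction by genotype therefore rests on the labels, and results are also given without Bcl10+/- culture 1 and without Bcl10-/- culture 1, whose unstimulated library had 12.6% of its FPKM in its 10 highest genes against 8.21% to 8.66% elsewhere. Depth is not in the table, and the steps between low values correspond to roughly 23.7 to 58.0 M fragments per library. The library numbers in the labels fall into 2 sets, 1 to 14 (both Bcl10-/- cultures and Bcl10+/- culture 1) and 33 to 38 (Bcl10+/- cultures 2 and 3).

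The keratinocyte label was checked against markers. Krt5, the basal keratin, was 4430 to 6426 FPKM, and 10 keratinocyte markers summed to 12093 to 14677 FPKM unstimulated and 11488 to 14871 FPKM with IL-17A. Of 13 immune markers, 12 were below 1 FPKM in every library, and Ptprc, Itgam, Adgre1, Ly6g, Cd3e and Cd207 were listed at 0 throughout. The immune sum was 5.43 to 10.3 FPKM unstimulated and 5.20 to 10.5 FPKM with IL-17A. Melanocyte markers summed to 201 to 433 and 193 to 452 FPKM and fibroblast markers to 0.613 to 40.3 and 0.505 to 40.3 FPKM in the same order. The high fibroblast sums were those of Bcl10-/- culture 2. Col1a1 was 10.8 and 10.6 FPKM there and at most 0.186 FPKM in the other 8 libraries, and Dcn was 7.60 and 8.62 FPKM there and at most 0.133 FPKM elsewhere. The chemokine gene Ccl2 was 12.8 FPKM in both libraries of that culture and 0.087 to 2.04 FPKM in the others. In bulk RNA, fewer cells of a type and less RNA per cell cannot be told apart.

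Promoters are shown for 4 of the rising cornified envelope genes of the Sprr2 family and for 2 CXC chemokine genes, because each set lies in a cluster on 1 chromosome and its members were higher with IL-17A in all 5 cultures. Cxcl5, of the same chemokine cluster and also higher in all 5, is not shown, and its matches are not given here. Neither chemokine gene shown passed the test described below. Ier3, which passed and has an NF-kB match, is not printed. Each line gives the 250 bases before the transcription start, 5′ to 3′, from RefSeq (GRCm38.p6, plus strand). Capitals mark TGANTCA, the AP-1 site, in the Sprr2 promoters, and overlapping matches to the NF-kB consensus in the chemokine promoters. The Sprr2 windows are chr3:92338890-92339139 (Sprr2d), chr3:92351893-92352142 (Sprr2e), chr3:92364937-92365186 (Sprr2f) and chr3:92407741-92407990 (Sprr2i). The chemokine windows are chr5:90890995-90891244 (Cxcl1) and chr5:90903649-90903898 (Cxcl2).
Sprr2d: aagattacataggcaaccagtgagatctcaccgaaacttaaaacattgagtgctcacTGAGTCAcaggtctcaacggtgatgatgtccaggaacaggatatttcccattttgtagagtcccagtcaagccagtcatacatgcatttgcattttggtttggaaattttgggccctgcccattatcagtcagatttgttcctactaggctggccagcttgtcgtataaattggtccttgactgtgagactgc
Sprr2e: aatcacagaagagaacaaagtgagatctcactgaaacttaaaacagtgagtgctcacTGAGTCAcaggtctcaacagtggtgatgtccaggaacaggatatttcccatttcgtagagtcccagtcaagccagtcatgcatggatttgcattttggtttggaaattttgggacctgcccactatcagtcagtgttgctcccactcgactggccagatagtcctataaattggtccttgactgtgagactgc
Sprr2f: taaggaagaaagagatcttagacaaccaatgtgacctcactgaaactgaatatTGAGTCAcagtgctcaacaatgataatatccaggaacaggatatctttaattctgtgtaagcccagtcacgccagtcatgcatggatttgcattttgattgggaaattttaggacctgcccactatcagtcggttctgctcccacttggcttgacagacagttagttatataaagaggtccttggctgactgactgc
Sprr2i: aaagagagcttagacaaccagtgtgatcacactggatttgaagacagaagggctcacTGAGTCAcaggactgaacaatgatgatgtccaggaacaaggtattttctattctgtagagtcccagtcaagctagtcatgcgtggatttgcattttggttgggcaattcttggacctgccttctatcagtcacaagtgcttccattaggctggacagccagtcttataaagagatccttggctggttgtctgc
Cxcl1: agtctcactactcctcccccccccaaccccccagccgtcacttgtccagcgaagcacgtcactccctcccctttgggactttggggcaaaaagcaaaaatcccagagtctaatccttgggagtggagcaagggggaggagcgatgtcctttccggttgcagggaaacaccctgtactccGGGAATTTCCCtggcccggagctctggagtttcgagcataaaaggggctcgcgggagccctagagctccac
Cxcl2: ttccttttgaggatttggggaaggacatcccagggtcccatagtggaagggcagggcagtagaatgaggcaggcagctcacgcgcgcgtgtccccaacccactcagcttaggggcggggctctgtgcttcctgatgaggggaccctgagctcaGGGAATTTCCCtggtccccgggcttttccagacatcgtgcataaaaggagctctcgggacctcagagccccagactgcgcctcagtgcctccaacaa

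In Sprr2d, Sprr2e and Sprr2i the AP-1 letters lay 193 to 187 bases before the start, and in Sprr2f 197 to 191 bases before it. These 4 windows were 74.8% to 90.0% identical to each other in pairwise global alignment. The NF-kB letters lay 71 to 61 bases before the start of Cxcl1 and 97 to 87 bases before that of Cxcl2. Of the 18 genes past the test described next, 14 had a promoter entry. TGANTCA, searched on both strands, was present in 5 of the 14 (Slc6a14, Sprr2d, Sprr2e, Sprr2f and Sprr2i), in 6.75% of all 32851 promoters and in 5.42% of those of the 8188 tested genes with an entry. Because the 4 Sprr2 windows are similar sequences, their matches are not independent, and the 5 of 14 cannot be set against these shares as separate matches. Matches in the Sprr2a copies are not given here. TTGCNNAA, a C/EBP core also searched on both strands, was present in 3 of the 14 (Il1f5, S100a9 and Sprr2i), in 9.56% of all and in 8.5% of those of tested genes. The NF-kB consensus was present in 1 of the 14 (Ier3), in 3.9% of all and in 5.4% of those of tested genes. Motifs were chosen with the results known, and a match is a run of letters, not a bound site.

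IL-17A raised 18 genes (0.149% of those tested) and lowered 0 (0%) by the paired test, which was limma on log2(FPKM + 1) with culture as a block and Benjamini-Hochberg adjustment over 12054 genes at 0.05. At an unadjusted p under 0.05 there were 374 genes up and 353 down, 6.03% of those tested in both directions together. The 18 were cornified envelope genes (Sprr2e, Sprr2d, Sprr2i, Sprr2f, Sprr2g and Lce3b), both subunits of the antimicrobial protein calprotectin (S100a8 and S100a9), 2 regulators of inflammatory transcripts (Zc3h12a and Nfkbiz), 2 secreted cytokine-family proteins (Csf3 and Il1f5), the transporters Slc6a14 and Slc5a1, and Hcar2, Acpp, Col8a1 and Ier3. Each was higher with IL-17A in 5 of 5 cultures, and the smallest change of any of them in any culture was 0.29 on the log2 scale. In 9 of the 18 the lowest treated library stood above the highest unstimulated one, against 23 of all tested genes (0.191%), and in 14 genes (0.116%) the ranges were separated downward. Slc5a1 is among the 9 and met the 1 FPKM filter only through its treated libraries. Without the block, 7 genes passed, 6 of them among the 18.

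Cornified envelope genes were the largest group, of which Sprr2g is annotated as a polymorphic pseudogene in GENCODE M21. Small proline-rich and late cornified envelope proteins are cross-linked into the shell of differentiated keratinocytes, and their genes lie in the epidermal differentiation complex on chromosome 3. Per-culture values are given in the order Bcl10-/- culture 1, Bcl10-/- culture 2, Bcl10+/- culture 1, Bcl10+/- culture 2 and Bcl10+/- culture 3. Sprr2e (ENSMUSG00000055030, GRCm38 chromosome 3, 92352143 to 92353449, plus strand) was 5.73, 6.64, 6.88, 9.10 and 8.23 FPKM unstimulated and 20.9, 21.3, 21.7, 20.0 and 21.6 FPKM with IL-17A. Every treated culture ended near the same level, while the unstimulated levels were lowest in the cultures numbered 1 to 14. The rise was 2.68-fold on the log2(FPKM + 1) scale (log2 1.42, SE 0.0945, adjusted p = 0.0064 by limma).

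Sprr2g, from 21.2, 23.0, 26.0, 27.0 and 23.1 FPKM to 42.9, 47.1, 56.1, 44.1 and 43.0 FPKM, also showed no overlap between unstimulated and treated libraries (log2 0.93, SE 0.0615, adjusted p = 0.0064). Sprr2d was 12.7, 13.4, 15.4, 13.0 and 80.6 FPKM unstimulated and 34.9, 38.8, 39.8, 35.8 and 124 FPKM with IL-17A. Bcl10+/- culture 3 thus stood far above the other 4 in both conditions, and the groups overlapped. Its log2 change was 0.61 there against 1.32 to 1.46 in the other cultures, and 1.24 on average (SE 0.127, adjusted p = 0.0314).

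The same culture was the highest for Sprr2i, at 17.9 FPKM against 4.97 to 6.98 FPKM unstimulated, and for Sprr2f, at 6.68 against 0.337 to 0.980 FPKM. Sprr2i rose by 1.17 (SE 0.0785, adjusted p = 0.0064) and Sprr2f by 1.07 (SE 0.116, adjusted p = 0.0396) on the log2 scale. Lce3b, a late envelope gene, went from 0.966 to 1.97 FPKM unstimulated to 2.36 to 4.41 FPKM with IL-17A, without overlap (log2 0.82, SE 0.0892, adjusted p = 0.0396). Sprr2 genes are close copies of each other, and the way reads were divided among them is unknown here, so their separate values are uncertain.

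**Figure D1:**
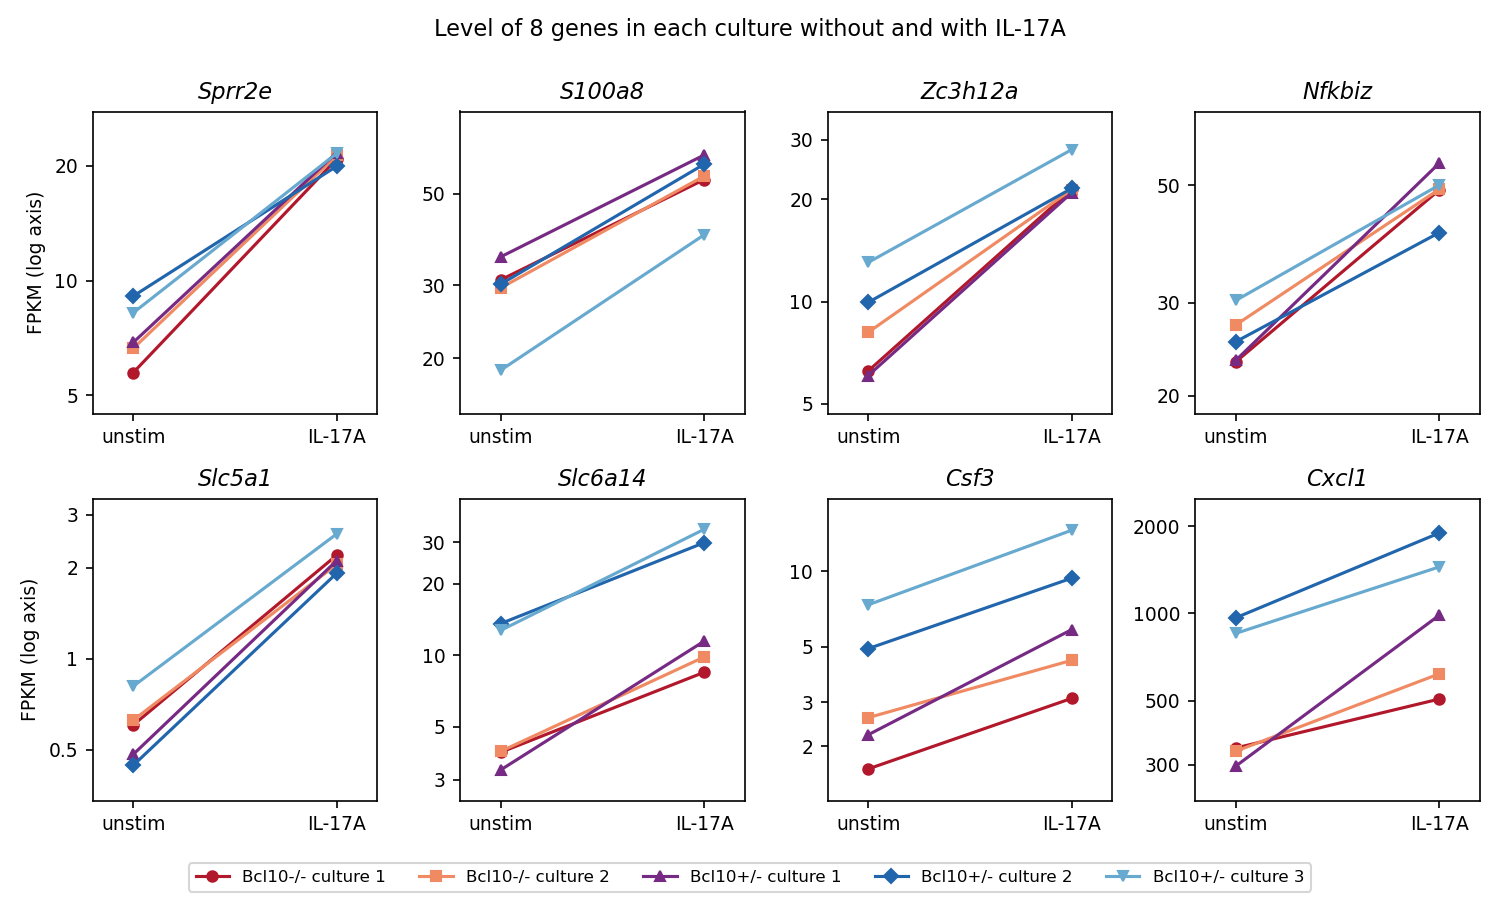
Level of 8 genes in each culture without and with IL-17A, in FPKM on a log axis, with 1 line for each of the 5 cultures and 1 panel per gene. Every line rises, and for Sprr2e, Zc3h12a, Slc6a14, Csf3 and Cxcl1 Bcl10+/- cultures 2 and 3 start above the other 3 cultures.

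Among 23 tested small proline-rich and late envelope genes, 12 were higher in all 5 cultures, 1 was lower in all 5 and 6 passed the test. Over all tested genes these shares were 3.65%, 4.29% and 0.149%. The median log2 change of the 23 was 0.29, against -0.01 over all tested genes. Further members higher in all 5 cultures that did not pass were Lce3a (0.74), Sprr2b (0.71), Lce3f (0.62), Lce3e (0.43), Sprr2h (0.40) and Lce3d (0.29). The Sprr2a copies Sprr2a1, Sprr2a2 and Sprr2a3 had mean log2 changes of 0.01, 0.01 and 0.03 at means of about 28.5 to 30.2 FPKM, and the abundant Sprr1b had -0.08 and Sprr1a -0.14. Lce1a1 was the member lower in all 5 cultures (-0.31, adjusted p = 0.714). All named late envelope genes that were higher in all 5 cultures were of the Lce3 type, and the 4 tested Lce1 genes Lce1g, Lce1h, Lce1f and Lce1a1 had mean changes of 0.27, 0.21, -0.07 and -0.31.

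Terminal differentiation genes outside these families were mixed, beside 3.65% higher and 4.29% lower in all 5 cultures over all tested genes. Of 22 tested, 5 were higher in all 5 cultures (Cnfn, Tgm1, Calm4, Grhl3 and Abca12), 3 were lower in all 5 (Dsc1, Ivl and Casp14), and 0 passed the test, with a median log2 change of -0.05. Tgm1, the transglutaminase that cross-links envelope proteins, was 6.86, 9.78, 10.4, 7.40 and 7.28 FPKM unstimulated and 10.3, 12.5, 14.1, 8.56 and 10.9 FPKM with IL-17A (log2 0.39, SE 0.061, adjusted p = 0.153). Ivl, the envelope precursor involucrin, had mean levels of 10.6 and 9.38 FPKM (log2 -0.18, adjusted p = 0.602). Cnfn, cornifelin, changed by 0.71, 0.67, 0.40, 0.00 and 0.42 across the cultures, and it was no longer higher in all 5 after scaling to TPM.

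Calprotectin genes rose in every culture. S100a8 (ENSMUSG00000056054, chromosome 3, 90668978 to 90670035, plus strand) was 30.9, 29.6, 35.2, 30.2 and 18.7 FPKM unstimulated and 54.0, 55.1, 62.0, 58.9 and 39.7 FPKM with IL-17A. Its change lay between 0.78 and 1.05 on the log2 scale in all cultures (log2 0.89, SE 0.0484, adjusted p = 0.00444). S100a9, its partner subunit, was 23.8, 23.8, 23.9, 23.2 and 15.8 FPKM unstimulated and 37.6, 48.9, 49.4, 41.7 and 41.9 FPKM with IL-17A (log2 0.97, SE 0.0977, adjusted p = 0.0314). Neither gene's unstimulated range reached its treated range, and Bcl10+/- culture 3 had the lowest unstimulated level and the largest change for both.

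Of 24 listed antimicrobial and acute-phase genes, only 7 reached the 1 FPKM mean. Of these, 4 were higher in all 5 cultures, 0 were lower in all 5 and 2 passed, with a median log2 change of 0.33. Over all tested genes 3.65% were higher, 4.29% were lower and 0.149% passed. Slpi, a secreted antiprotease, was 17.0, 15.3, 15.8, 33.0 and 22.1 FPKM unstimulated and 23.7, 18.8, 19.8, 40.6 and 28.1 FPKM with IL-17A (log2 0.33, SE 0.0398, adjusted p = 0.0554), just outside the threshold. Defb14, a beta-defensin, changed by -0.03 in Bcl10-/- culture 1 and by 0.28 to 0.75 in the other 4 cultures. The iron-binding lipocalin Lcn2, a widely used IL-17A target, did not exceed 0.705 FPKM in any library, and Camp, Saa1 and Saa2 were listed at 0 throughout.

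Regulators downstream of the receptor included Zc3h12a, which had the second largest rise of the 18. Zc3h12a (ENSMUSG00000042677, chromosome 4, 125118423 to 125127840, minus strand) was 6.25, 8.12, 6.06, 9.95 and 13.0 FPKM unstimulated and 21.4, 21.4, 20.9, 21.5 and 28.0 FPKM with IL-17A. Treated levels lay close together except in Bcl10+/- culture 3, and the change was 2.51-fold on the log2(FPKM + 1) scale (log2 1.33, SE 0.108, adjusted p = 0.0134). Nfkbiz was 23.2, 27.2, 23.3, 25.3 and 30.3 FPKM unstimulated and 48.9, 49.1, 55.0, 40.7 and 50 FPKM with IL-17A (log2 0.89, SE 0.0859, adjusted p = 0.0289). For both genes the mean change was larger in the cultures numbered 1 to 14 (1.52 and 1.03) than in those numbered 33 to 38 (1.04 and 0.68).

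Of 23 tested NF-kB and IL-17 effector genes, 8 were higher and 1 was lower in all 5 cultures and 2 passed. The shares over all tested genes were 3.65%, 4.29% and 0.149%. The list median was 0.10 on the log2 scale. Without Bcl10+/- culture 1 the median was 0.04 and 0 passed. Cebpd, a C/EBP transcription factor of the pathway, was 15.9, 17.2, 16.7, 21.0 and 19.7 FPKM unstimulated and 32.3, 27.7, 25.8, 29.9 and 27.6 FPKM with IL-17A (log2 0.64, SE 0.0787, adjusted p = 0.0619). The 2 ranges did not overlap. The metalloreductase Steap4 (0.77), the atypical IkB protein Bcl3 (0.53), the inhibitory kinase Irak3 (0.34), Nfkbia (0.20) and Nfkb1 (0.12) were also higher in all 5 cultures without passing. Sod2 was lower in all 5 (-0.08), and the deubiquitinase gene Tnfaip3 moved from -0.49 in Bcl10-/- culture 1 to 0.71 in Bcl10+/- culture 1.

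No gene of the receptor and its proximal signalling passed the test. Of 21 tested, 2 were higher in all 5 cultures (Ikbke, 0.35, and Traf3ip2, 0.12) and 1 was lower in all 5 (Traf3, -0.21). Beside these, 3.65% of all tested genes were higher and 4.29% lower. The list median was -0.03. Srsf1, a splicing factor that binds IL-17A target transcripts, had changes of -1.21, -1.71, -0.69, -0.10 and 0.02 across the cultures (mean -0.74, adjusted p = 0.769). The receptor chains Il17ra and Il17rc were measured at 5.22 to 6.31 FPKM and 6.23 to 12.8 FPKM over the 10 libraries. Their mean log2 changes were -0.04 and -0.04. Of 12 tested genes of the CARD-BCL10-MALT1 complex and MALT1 substrates, Zc3h12a was the one called and the one higher in all 5, and the median was 0.02.

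Of the cytokine genes, Csf3 and Il1f5 rose. Csf3, which encodes the granulocyte colony-stimulating factor, was 1.62, 2.60, 2.22, 4.91 and 7.34 FPKM unstimulated and 3.10, 4.40, 5.84, 9.37 and 14.6 FPKM with IL-17A (log2 0.81, SE 0.08, adjusted p = 0.0314). The treated levels of both Bcl10-/- cultures lay below the unstimulated levels of Bcl10+/- cultures 2 and 3, so the groups overlapped although every pair rose. Il1f5, the IL-36 receptor antagonist, was 5.33, 4.59, 5.30, 6.84 and 6.48 FPKM unstimulated and 7.88, 7.32, 8.81, 10.7 and 10.1 FPKM with IL-17A. Its change was nearly equal in the 5 cultures, 0.49 to 0.64 (log2 0.57, SE 0.0406, adjusted p = 0.00783).

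Of 16 tested cytokines and growth factors, 10 were higher in all 5 cultures, 0 were lower in all 5 and 2 passed. Among all tested genes these shares were 3.65%, 4.29% and 0.149%. The list median was 0.32 on the log2 scale (0.24 without Bcl10+/- culture 1). Csf2, the granulocyte-macrophage factor, was 0.639, 0.575, 1.15, 12.6 and 15.5 FPKM unstimulated and 1.28, 2.12, 5.31, 23.1 and 24.0 FPKM with IL-17A. Its level differed between the 2 number sets by far more than it did between treatments, and it did not pass (log2 0.89, adjusted p = 0.186). The IL-36 agonists Il1f6 (0.75, adjusted p = 0.319) and Il1f9 (0.42, adjusted p = 0.0554), and Il1a (0.36), Tnf (0.29), Lif (0.28), Il24 (0.24) and Il33 (0.19), were also higher in all 5. Csf1, the macrophage colony-stimulating factor, had changes of -0.19, -0.04, 0.25, -0.10 and -0.09 and was the tested member with a mean below 0 (-0.03). In 8 of the 16, 6 of these among the 10, the unstimulated level of Bcl10+/- cultures 2 and 3 was above that of all cultures numbered 1 to 14. The share over all tested genes was not counted, so this is not shown to be particular to cytokines.

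The neutrophil-attracting chemokines Cxcl1, Cxcl2 and Cxcl5 were higher in every culture, by uneven amounts. Cxcl1 was 343, 334, 296, 966 and 853 FPKM unstimulated and 506, 618, 985, 1898 and 1449 FPKM with IL-17A. The changes ran from 0.56 in Bcl10-/- culture 1 to 1.73 in Bcl10+/- culture 1, and the mean of 0.98 (SE 0.158) had an adjusted p of 0.16 by limma. Cxcl2 was 8.05, 9.25, 5.90, 91.3 and 70.6 FPKM unstimulated and 9.53, 15.7, 20.2, 193 and 117 FPKM with IL-17A (log2 0.87, adjusted p = 0.337). Cxcl5 was 2.81, 11.8, 4.22, 12.7 and 18 FPKM unstimulated and 4.87, 17.3, 15.7, 22 and 31.9 FPKM with IL-17A (log2 0.87, adjusted p = 0.269).

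For all 3 genes Bcl10+/- culture 1 had the largest change, and treated and unstimulated ranges overlapped. These were the 3 of 11 tested chemokines that were higher in all 5 cultures, with 0 lower in all 5 and 0 past the test. Among all tested genes 3.65% were higher and 4.29% lower. Cxcl3, of the same cluster, had changes of -0.26, 0.17, 0.90, 0.16 and 0.08 (mean 0.21), and Ppbp had a mean of -0.08 and was lower in 3 of 5. The list median was 0.21, and 0.13 without Bcl10+/- culture 1. Ccl20, which attracts CCR6-bearing T cells, changed by -0.12 in Bcl10-/- culture 1 and by 0.40 to 0.86 in the other 4. In 7 of the 11 chemokines the unstimulated level of Bcl10+/- cultures 2 and 3 was above that of all cultures numbered 1 to 14. The share over all tested genes was not counted, so this is not shown to be particular to chemokines.

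Transporters and single genes of other kinds made up the rest of the 18. Slc5a1, the sodium-glucose cotransporter SGLT1, was 0.604, 0.626, 0.483, 0.444 and 0.812 FPKM unstimulated and 2.20, 2.05, 2.11, 1.92 and 2.59 FPKM with IL-17A. The groups did not overlap, and the changes lay between 0.91 and 1.07 in all cultures (log2 1.00, SE 0.0548, adjusted p = 0.00444). At levels this low the log2(FPKM + 1) scale understates the change. Slc5a1 was below 1 FPKM in every unstimulated library and met the 1 FPKM filter only through its treated libraries. Its call and its separated ranges are therefore not independent of that filter. Slc6a14, an importer of neutral and basic amino acids on the X chromosome, was 3.91, 3.95, 3.30, 13.6 and 12.8 FPKM unstimulated and 8.49, 9.85, 11.5, 29.8 and 33.9 FPKM with IL-17A (log2 1.21, SE 0.0883, adjusted p = 0.00783). Its unstimulated level in Bcl10+/- cultures 2 and 3 exceeded the treated level of the other 3 cultures.

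Hcar2, a G protein-coupled receptor for niacin and hydroxybutyrate, had the same layout, with 2.39, 3.11, 2.19, 11.7 and 12.3 FPKM unstimulated and 4.79, 5.07, 5.71, 21.0 and 19.5 FPKM with IL-17A (log2 0.76, SE 0.078, adjusted p = 0.0314). Acpp, an acid phosphatase, went from 10.1 to 19.0 FPKM unstimulated to 17.6 to 29.3 FPKM with IL-17A (log2 0.57, SE 0.0496, adjusted p = 0.0177). Ier3, an immediate early gene, was 169, 180, 203, 253 and 286 FPKM unstimulated and 225, 230, 266, 321 and 349 FPKM with IL-17A. It was the most abundant of the 18 and had the smallest change (log2 0.36, SE 0.0324, adjusted p = 0.0218). Col8a1, a collagen chain, went from 15.6 to 26.5 FPKM to 19.6 to 36 FPKM and had the highest adjusted p of the 18 (log2 0.43, SE 0.0487, adjusted p = 0.0455).

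**Figure D2:**
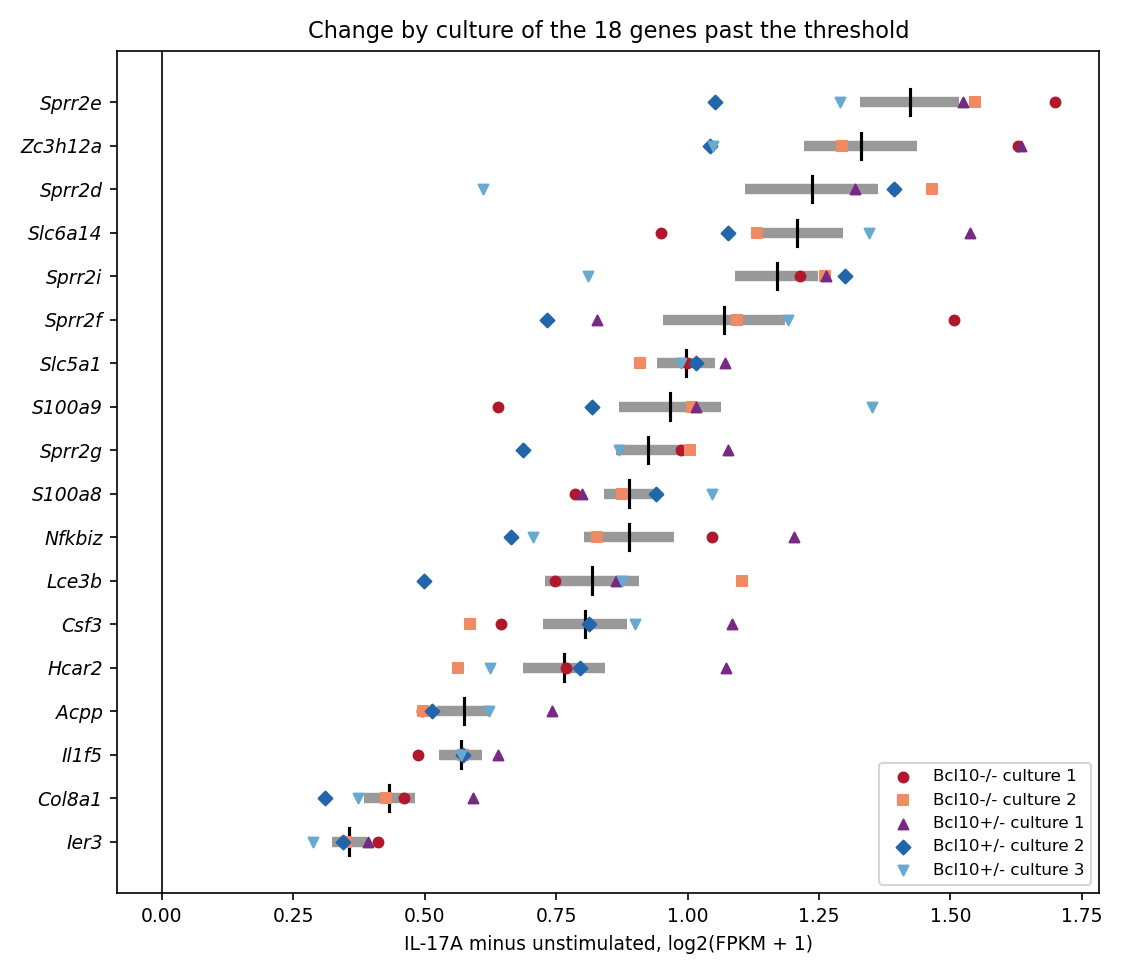
Change of the 18 genes past the threshold, as IL-17A minus unstimulated on the log2(FPKM + 1) scale, with 1 symbol per culture. Black ticks are the means over 5 cultures and grey bars the mean ± 1 SE of limma, and every symbol lies to the right of 0, from 0.29 for Ier3 to 1.70 for Sprr2e.

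The 18 calls depended on which culture was left out. Leaving out Bcl10-/- culture 1 left 9 genes raised (7 of the 18), and leaving out Bcl10+/- culture 1 left 8 (all among the 18). Sprr2e, Sprr2g, Sprr2i, S100a8, Slc5a1, Slc6a14 and Il1f5 passed both times. Of these, Slc5a1 was below 1 FPKM in every unstimulated library. Without Bcl10+/- culture 2 there were 4 and without Bcl10+/- culture 3 there were 7, all among the 18. Without Bcl10-/- culture 2 there were 0 genes at an adjusted p under 0.05 and 496 at an unadjusted p under 0.05, and the lowest adjusted p among the 18 was 0.0633. Bcl10-/- culture 2 is also the culture with the fibroblast marker signal given above, whose part in this count was not tested. Among the 18, Bcl10+/- culture 1 had the largest change for 10 genes and the smallest for 0, and the median change by culture was 0.87, 0.96, 1.07, 0.80 and 0.87.

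Responses of the 2 genotype labels were compared in a separate fit with the same block, which addresses the study's stated interest in loss of BCL10 and IL-17A stimulation. No gene passed for the difference (0 of 12054, 0%), 624 had an unadjusted p under 0.05, and the smallest adjusted p was 0.251. Without Bcl10+/- culture 1 the count was again 0. It was 3 without Bcl10-/- culture 1, 11 without Bcl10-/- culture 2 and 1 without Bcl10+/- culture 2. These fits leave 1 Bcl10-/- culture, assumed to vary like the other cultures, or 2 cultures in each arm, and no gene called in them was among the 18. Of the 18, 10 had the larger mean change in the Bcl10-/- cultures and 8 in the Bcl10+/- cultures.

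For Sprr2e the mean change was 1.62 in the libraries labelled Bcl10-/- and 1.29 in those labelled Bcl10+/-, a difference of 0.33 with a 95% interval from -0.05 to 0.72. Slc5a1 differed by -0.07 (-0.36 to 0.22), S100a8 by -0.10 (-0.34 to 0.14) and Nfkbiz by 0.08 (-0.38 to 0.54). Csf3, at 0.62 and 0.93, had the one interval of the 18 that did not include 0 (-0.32, from -0.60 to -0.03). Its unadjusted p was 0.0346 and its adjusted p by limma 0.779. A p above the threshold does not show that the cultures of the 2 labels responded alike.

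**Figure D3:**
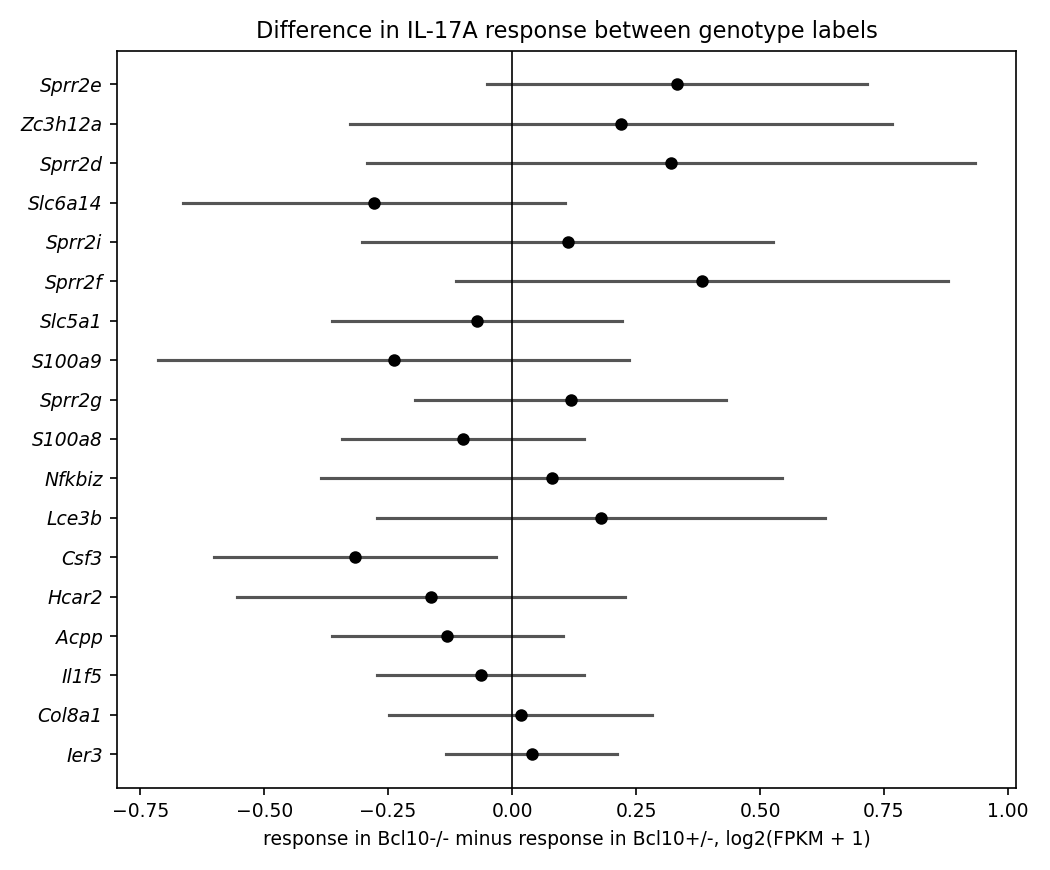
Difference in IL-17A response between the genotype labels for the 18 genes, Bcl10-/- minus Bcl10+/- on the log2(FPKM + 1) scale, with 95% intervals from limma. The interval of Csf3 is the one that does not reach 0, and its adjusted p was 0.779.

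Genes that were lower with IL-17A in all 5 cultures had small mean changes. Their median was -0.11, against 0.14 for the genes higher in all 5. A mean of at least 0.5 on the log2 scale was reached by 40 of the 440 genes higher and by 8 of the 517 genes lower. In 386 of the 517 and 266 of the 440, at least 1 culture changed by less than 0.05. Neighbours just outside the selection, the genes higher in exactly 4 of 5 cultures, numbered 1843, and those higher in exactly 1 numbered 2302. The balance moved with the scaling. Among genes moving the same way in all 5 pairs, 46% were higher with FPKM as deposited. After median-of-ratios scaling it was 54.3% (508 higher and 428 lower), and after conversion to TPM 67.4% (677 higher and 328 lower). The filter was applied again after scaling, so 12054, 12041 and 13656 genes were tested in this order. The shift therefore mixes scaling with a changed set of genes. The median change of all tested genes was -0.01, 0.00 and 0.01 under these scalings.

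The gene with the smallest adjusted p among those lower was Ackr3, an atypical chemokine receptor that scavenges CXCL12, which was chosen for naming after its value was seen. It was 8.76, 8.75, 7.98, 4.47 and 6.37 FPKM unstimulated and 7.08, 6.18, 5.38, 3.21 and 4.96 FPKM with IL-17A (log2 -0.38, SE 0.0489, adjusted p = 0.0719). The groups overlapped because Bcl10+/- cultures 2 and 3 started lower. The largest mean difference among genes lower in all 5 was that of Fignl1, an AAA ATPase of DNA repair. Its FPKM was 19.1, 18.8, 16.4, 12.0 and 15.5 unstimulated and 1.62, 17.9, 3.10, 1.95 and 7.08 with IL-17A (log2 -1.65, SE 0.392, adjusted p = 0.441), so that Bcl10-/- culture 2 stayed near its unstimulated level.

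Cell cycle and DNA replication genes were slightly lower in most cultures. All 36 listed genes were tested, 13 were lower and 0 higher in all 5 cultures, 0 passed, and 30 had a mean below 0. Of all tested genes, 4.29% were lower and 3.65% higher in all 5. The share of all tested genes with a mean below 0 was not counted. The median log2 change of the 36 was -0.08, against -0.01 over all genes. By culture it was -0.09, -0.06, -0.07, -0.14 and -0.03. The G1/S regulator E2f1 was 8.82, 8.30, 8.52, 6.10 and 6.20 FPKM unstimulated and 7.13, 8.04, 5.93, 4.83 and 5.91 FPKM with IL-17A (log2 -0.22, adjusted p = 0.714). The proliferation marker Mki67 was 24.5, 29.1, 30.4, 17.2 and 21.8 FPKM unstimulated and 20.4, 27.6, 28.3, 14.5 and 20.4 FPKM with IL-17A (log2 -0.15, adjusted p = 0.634).

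The replication genes Mcm2, Mcm3, Mcm4, Mcm6, Rrm2, Cdc6 and Cdc45 were also lower in all 5, with means between -0.20 and -0.10. The number lower in all 5 was 12 after median-of-ratios scaling and 7, with 1 higher, after conversion to TPM. The number with a mean below 0 was 30 under all 3 scalings.

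**Figure D4:**
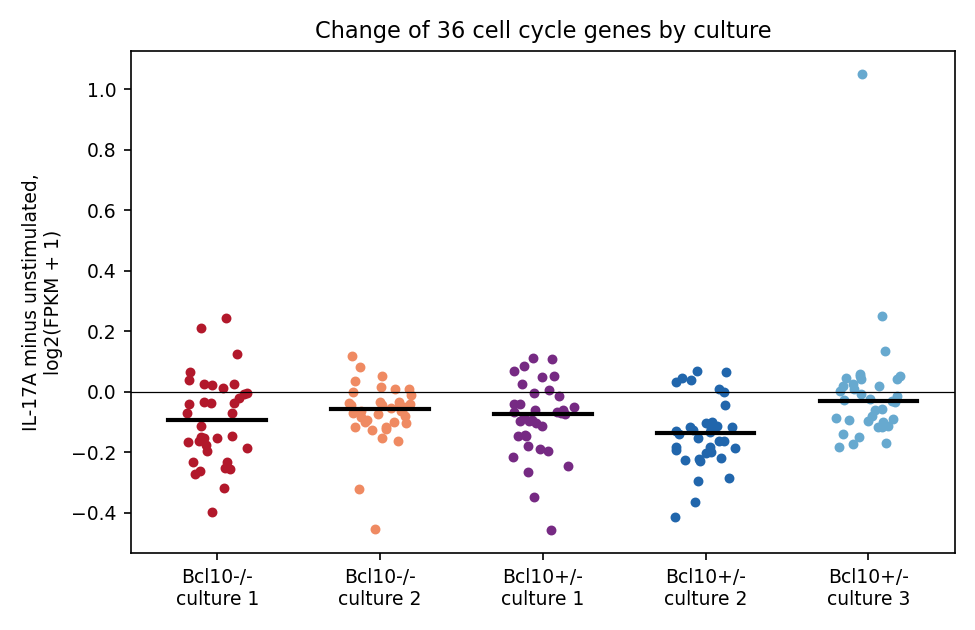
Change of 36 cell cycle genes in each culture, IL-17A minus unstimulated on the log2(FPKM + 1) scale, with 1 point per gene and a bar at the median. The medians run from -0.14 to -0.03, and the point at 1.05 in Bcl10+/- culture 3 is Foxm1.

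Of 18 tested basal keratinocyte and adhesion genes, 4 were lower in all 5 cultures (the integrin chains Itga3, -0.16, and Itga6, -0.13, the hemidesmosome collagen Col17a1, -0.15, and the laminin chain Lama3, -0.14), 2 were higher in all 5 (Igfbp3, 0.24, and the collagen-binding integrin Itga2, 0.19) and 0 passed. Beside these, 4.29% of all tested genes were lower and 3.65% higher. The list median was -0.05. In Bcl10-/- culture 1 it was 0.05, with 12 of the 18 above 0, and without that culture it was -0.10, with 9 lower and 3 higher in all remaining cultures. Itga3 was 341, 354, 385, 228 and 278 FPKM unstimulated and 280, 339, 350, 199 and 254 FPKM with IL-17A (adjusted p = 0.48). After conversion to TPM, Itga6 was no longer lower in all 5.

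Of 23 tested wound and stress genes, 7 were higher and 0 lower in all 5 cultures, with a median of 0.12 and 0 past the test. The shares higher and lower over all tested genes were 3.65% and 4.29%. Stfa1, a cysteine protease inhibitor of the stefin A family, was 13.2, 14.6, 13.4, 3.89 and 3.94 FPKM unstimulated and 17.9, 22.9, 16.2, 6.61 and 9.43 FPKM with IL-17A (log2 0.60, adjusted p = 0.261). The connexins Gjb6 (0.42, adjusted p = 0.16) and Gjb2 (0.31, adjusted p = 0.3) and the collagenase Mmp13 (0.43) were higher in all 5. The wound keratins Krt6a, Krt6b, Krt16 and Krt17 had mean changes of 0.00, 0.01, 0.09 and 0.04.

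The remaining lists had 0 to 5 members on either side, beside 3.65% higher and 4.29% lower over all tested genes. Of 25 immediate early and AP-1 genes, 5 were higher and 0 lower in all 5 (Ier3 passed), with a median of 0.07. Of 10 EGF receptor and ligand genes, 1 was higher (Lrig1, 0.21) and 2 lower (Errfi1, -0.11, and Epgn, -0.10), with a median of 0.03. Of 15 NRF2 targets, 1 was higher and 3 lower (Osgin1, Nqo1 and Gclc), with a median of -0.01. Of 11 interferon-stimulated genes, 0 moved the same way in all 5, with a median of -0.07. Sterol synthesis genes (19 tested) had 0 higher and 1 lower, with a median of -0.04, and glycolysis and hypoxia genes (20 tested) had 2 higher and 1 lower, with a median of -0.01.

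**Figure D5:**
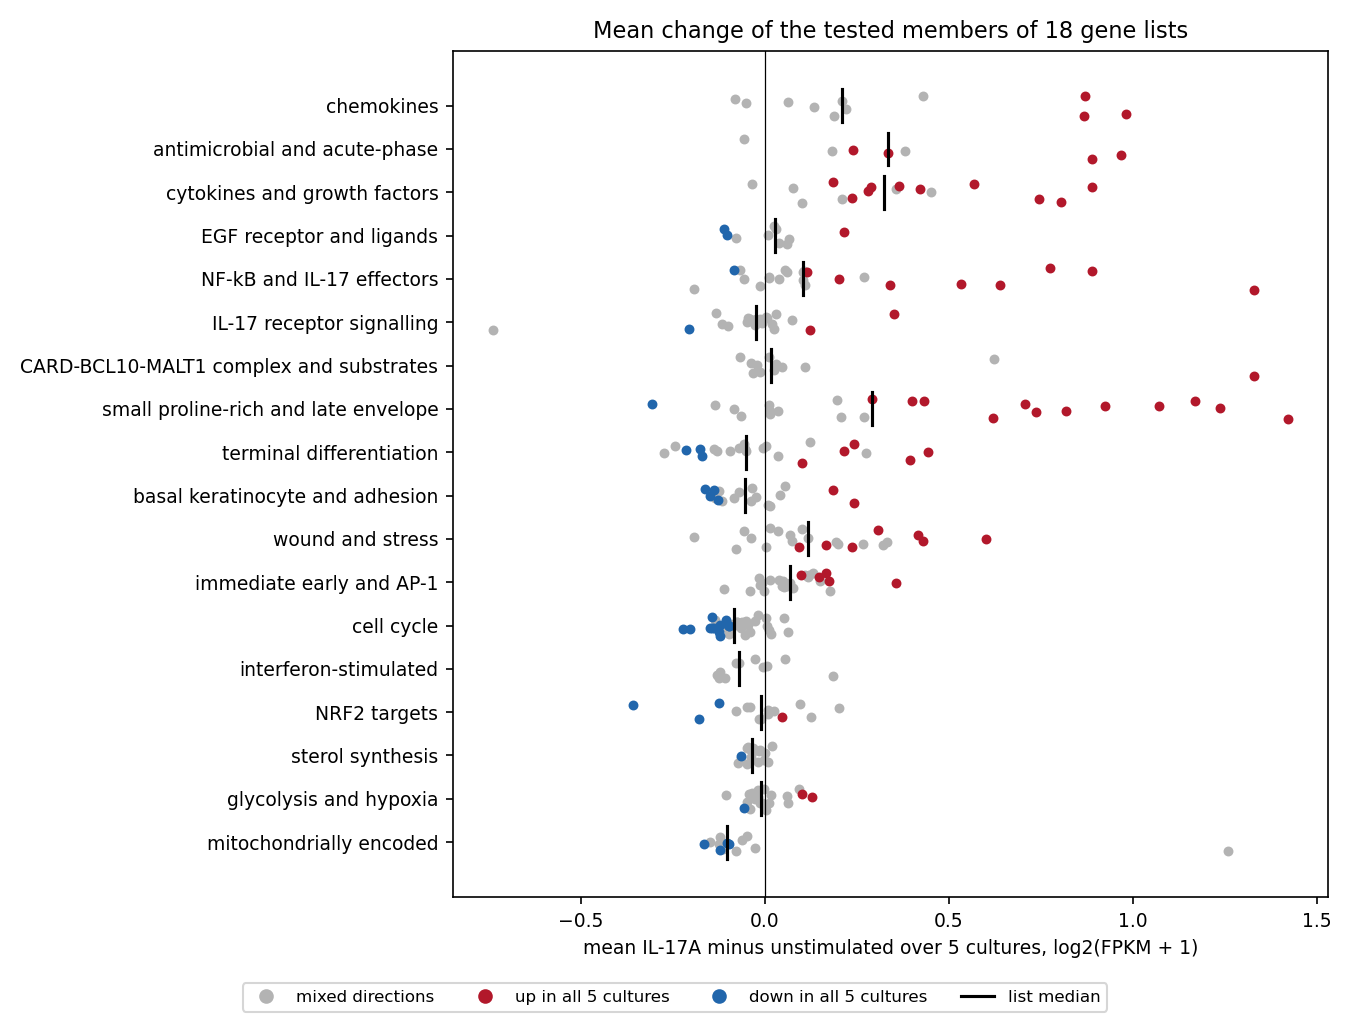
Mean change of each tested member of 18 gene lists over 5 cultures, IL-17A minus unstimulated on the log2(FPKM + 1) scale, with the list median as a black tick and colours for members that moved the same way in all 5 cultures. Medians are highest for antimicrobial (0.33), cytokine (0.32) and small proline-rich and late envelope genes (0.29), and the isolated mitochondrial point at 1.26 is mt-Nd2, which was listed at 0.0132 FPKM in the unstimulated library of Bcl10+/- culture 2.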

How the data were processed

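Values were FPKM as deposited by the authors, in 1 table of 37991 genes by 10 libraries. HISAT2, SAMtools, StringTie, DESeq2 and the build mm10 are listed, per the submitters' processing notes. Tool versions, what each tool did, the strand setting and the annotation used were not given in the sources used here. Input was 100 ng of total RNA with poly(A) selection, per the labels' protocols. No count model was applied, because FPKM are not counts. An exact 0 can be a failed estimate. Symbols and positions for 32938 rows came from GENCODE M21 (GRCm38, the assembly of mm10), and 17074 rows were 0 in every library.

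Genes averaging at least 1 FPKM were tested on log2(FPKM + 1), with a pseudocount of 1, by limma 3.58.1 (R 4.3.3) with its mean-variance trend, culture as a fixed block, two-sided, adjusted by Benjamini-Hochberg over 12054 genes at 0.05. The mean for the filter was taken over both treatments, so a gene could be tested through the treatment in which it was high. Folds are on the log2(FPKM + 1) scale, which understates changes of low genes. The difference between genotypes was the treatment-by-genotype coefficient of a separate fit with the same settings and block. An exact sign-flip permutation test over 5 pairs cannot go below p = 0.0625, so none was used. Same-numbered libraries of a genotype were taken as pairs. Their deviations from the group means correlated at 0.227 (Bcl10-/-) and at 0.607, 0.488 and 0.137 (Bcl10+/- cultures 1 to 3). Within Bcl10+/- a shared culture cannot be told apart here from a shared set of library numbers. Mismatched libraries were not correlated, so these values do not establish the pairing. The pipeline was tested on simulated data.

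Depth was estimated from low values of single-exon genes of 300 to 3000 bp, of which 49.3% to 57.8% lay within 0.05 of a whole fragment. This was too few to recover reads. A floor of 3 fragments in 1 kb would then be 0.0517 to 0.127 FPKM, for counting error only.

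Named genes were all past the threshold, the 8 largest mean rises and falls among the rest that moved the same way in all 5 pairs, up to 4 such members with the largest change per list, the 3 largest each way with 4 of 5 pairs, the 3 smallest p for the genotype difference, and Bcl10, Malt1 and Krt5. Other names, the chromosome windows and the motifs were chosen after values were seen. The members and lists were themselves chosen with earlier results of these data known, so no list is independent evidence of its direction. Alternatives were other block treatments, pseudocount, filter, scaling, trend, weights, left-out cultures and subsets by genotype or library number. Promoters are RefSeq's (GRCm38.p6), and bases after the start were left out of print.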

Additional observations from a re-analysis of the deposited data

Results flagged for a closer look

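Among the 90 genes named by rule, the change in 1 culture lay far from the other 4 for 13 genes, by the gap to the nearest culture relative to the whole range. Chance alone gives about 1 such flag in 20 groups, for independent groups not picked by their values. Many of the 90 were picked by these same changes, so the 13 cannot be set against that rate. Of the 13, 7 fell in Bcl10+/- culture 1, 3 in Bcl10-/- culture 1 and 3 in Bcl10+/- culture 3. All values are IL-17A minus unstimulated on the log2(FPKM + 1) scale.

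In Bcl10+/- culture 1 the chemokine Cxcl5 changed by 1.68 against 0.51 to 0.79 in the other cultures, the kinase gene Ikbke by 0.63 against 0.23 to 0.33, the integrin Itga2 by 0.34 (0.335) against 0.11 to 0.17 and the hypoxia-response gene Ndrg1 by 0.39 against 0.01 to 0.11. On the lower side, the same culture gave -1.14 for the NRF2 target Osgin1 against -0.25 to -0.12, -0.35 for the replication gene Cdc45 against -0.11 to -0.07, and -0.20 for the sterol gene Sqle against -0.05 to -0.00.

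Bcl10-/- culture 1 gave 3.14 for Bcl10 itself, against -0.14 to 0.11 elsewhere, because its unstimulated library was listed at 0.969 FPKM. It gave -4.69 for the unmatched identifier ENSMUSG00000048365, listed at 0 in its treated library, against -0.07 to -0.01. For Rprd1b, a regulator of RNA polymerase II, it gave -0.00706 against 1.25 to 1.45.

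Bcl10+/- culture 3 gave 0.61 for Sprr2d against 1.32 to 1.46 and 0.81 for Sprr2i against 1.21 to 1.3. It also gave -2.05 for Gm13241 against -0.55 to -0.17.

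The genes named for the smallest p of the genotype difference were picked by that difference, so their values do not test it. Lsm12, with the smallest p, changed by -1.30 on average in the libraries labelled Bcl10-/- and by 0.01 in those labelled Bcl10+/-, a difference of -1.31. Kbtbd4 changed by -0.93 and 0.07, a difference of -0.99, and its Bcl10+/- changes of 0.08, 0.11 and 0.02 were small. Uck1, a uridine-cytidine kinase, changed by -0.76 and 0.50, a difference of -1.26. Each had an adjusted p of 0.251 by limma. Kbtbd4 and Uck1 were 2 of 882 genes, out of 12054 tested, with opposite signs in every culture of the 2 labels. Signs drawn at random would split this way in a share of 0.0625.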

How the results depend on the processing

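Among the results for single named genes under all alternatives, 1439 kept their side of the threshold, 169 lost the call, 20 gained one and 15 uncalled values changed sign. Only the 18 called genes could lose a call, and the 1439 include genes that had none. Of the 18, all were still called after median-of-ratios scaling and with library weights, and 14 after conversion to TPM. There were 6 still called with no replicate block, 6 with no filter, 3 within library numbers 1 to 14 and 0 within Bcl10+/-. The count of raised genes, 18 with the replicate block, was 7 with no replicate block, 6 with no expression filter, 30 with library weights, and 0 to 9 when 1 culture was left out. It was 4 within library numbers 1 to 14, 0 within 33 to 38, 5 within Bcl10-/- and 0 within Bcl10+/-, subsets of 2 or 3 cultures. With the replicate block as a random effect 20 were raised, 12 of them among the 18.

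The count of lowered genes, 0, was 1 with the block as a random effect (Gm4750), 1 with library weights (Ackr3), 2 within Bcl10-/-, and 0 to 1 with 1 culture left out. The count of genes for the genotype difference, 0, was 5 with the block as a random effect (Uck1, Dusp3, Kbtbd4, Lsm12 and Cox20b) and 0 to 11 with 1 culture left out.

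Genes higher in all pairs numbered 440, against 677 after TPM scaling, 645 to 1169 with 1 culture left out, 1192 within library numbers 1 to 14, 3255 within 33 to 38, 2822 within Bcl10-/- and 1760 within Bcl10+/-. Genes lower in all pairs numbered 517, against 332 at a mean of at least 5 FPKM, 328 after TPM scaling, 764 to 1567 with 1 culture left out, 1297 within library numbers 1 to 14, 3926 within 33 to 38, 2823 within Bcl10-/- and 2331 within Bcl10+/-. Fewer pairs by construction leave more genes with 1 sign. The TPM counts are over 13656 tested genes. The cause of the other shifts was not tested. Depth is known only as an estimate, so changes of genes near 1 FPKM, such as Slc5a1, Lce3b and Sprr2f, carry the least support in fragments. Sprr2f was 0.337 to 0.980 FPKM unstimulated in all cultures but Bcl10+/- culture 3.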

Other observations

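Several of the genes that were higher in all 5 cultures lie in clusters on the mouse chromosomes (GRCm38). In the epidermal differentiation complex, taken from S100a1 to S100a10 (chromosome 3, 90511034 to 93564643), 47 genes were tested, 17 were higher in all 5 cultures (36.2%, against 3.65% of all tested genes), 3 were lower in all 5 and 8 passed the test. The median change of the 47 was 0.06. In the CXC chemokine cluster from Cxcl5 to Cxcl2 (chromosome 5, 90759360 to 90905938), 3 of 5 tested genes were higher in all 5 cultures and 0 passed. In the IL-1 family cluster from Il1f9 to Il1rn (chromosome 2, 24186476 to 24351494), 3 of 4 tested genes were higher in all 5 and 1 passed. Il1rn, the IL-1 receptor antagonist gene that was the exception, changed by -0.77, -0.39 and 0.04 in the cultures numbered 1 to 14 and by 1.70 and 1.68 in Bcl10+/- cultures 2 and 3 (mean 0.45, adjusted p = 0.934 by limma). Neighbouring genes are not independent of each other, and the windows were drawn after the values were seen.

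Outside the lists, Ehf, an ETS transcription factor of epithelia chosen after its values were seen, was 3.71, 3.46, 2.58, 5.40 and 5.56 FPKM unstimulated and 5.19, 5.77, 7.30, 8.26 and 8.22 FPKM with IL-17A (log2 0.65, SE 0.12, adjusted p = 0.255). Tomm6, a subunit of the mitochondrial import pore, was higher in all 5 (0.81, adjusted p = 0.258). The snoRNA gene Gm25894 was 0.196 to 0.515 FPKM unstimulated and 1.78 to 5.48 FPKM with IL-17A (log2 1.55, adjusted p = 0.0719 by limma). It too met the 1 FPKM filter only through its treated libraries. Libraries were made after poly(A) selection, and the gene is 75 bases long. Mitochondrially encoded genes had 4 of 13 lower in all 5 cultures, against 4.29% of all tested genes, and a median of -0.10. The count of 4 became 2 after median-of-ratios scaling and 0 after conversion to TPM.

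Some of the largest mean differences rest on values of 0 in single libraries. Gstp2, higher in 4 of 5 cultures, was listed at 0 in the unstimulated libraries of both Bcl10-/- cultures and Bcl10+/- culture 2 and in the treated library of Bcl10+/- culture 1, and at 33.9 to 41.0 FPKM in the other 6. Eno1b, lower in 4 of 5, was listed at 0 in the treated libraries of Bcl10-/- culture 2 and Bcl10+/- culture 1 and at 155 to 197 FPKM elsewhere. The unmatched identifier ENSMUSG00000073674, higher in all 5, was listed at 0 in the unstimulated libraries of Bcl10+/- cultures 1 and 3 and at 4.97 to 8.04 FPKM elsewhere. It is counted among the 440 genes and among the 40 with a mean of at least 0.5.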
